A study of Mus musculus with 2 samples.

Results

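Cluster 6 of the embryonic day 11.5 (E11.5) mandibular prominence was 1 of the 11 clusters of the library that the authors named mesenchyme or neural crest and that carried mesenchymal genes. Its 501 cells were those with that number in the authors' deposited metadata, out of 7099 cells of the E11.5 library and 13417 cells of both libraries. They made up 7.06% of the library and 8.49% of its 5899 mesenchymal cells. The level of each gene in cluster 6 was set against the other 5398 mesenchymal cells, which lie in clusters 0 to 5, 7, 8, 10 and 16 and are called the other mesenchyme. The genes that mark the cluster are Igf1, Twist2, Rspo3, Pax1 and Epha3.

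The mandibular prominence, the lower of the paired swellings of the first pharyngeal arch, gives rise to the lower jaw and much of the tongue. It was dissected from wild-type CD1 mouse embryos at E13.5 and at E11.5 and profiled by droplet-based 10x single-cell RNA sequencing, with 1 library per stage. A 12.5 mg portion of tissue per library was treated for 10 minutes with a cold-active protease, at 5 mg/ml for E13.5 and 3 mg/ml for E11.5, and 9600 cells were loaded to capture 6000. The sources used here do not give the number and sex of the embryos behind each library, and stage, library and protease concentration cannot be told apart.

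The E13.5 library held 67838169 UMIs (unique molecular identifiers, each standing for 1 captured transcript) in 6318 cells, and the E11.5 library held 49913485 UMIs. Cluster 6 held 2392527 UMIs and the other mesenchyme 34907798. The median cell of cluster 6 had 4374 UMIs, against medians of 4935 to 7632 in the 10 other clusters, so these cells were the shallowest of the mesenchyme. With every cell thinned to 2000 UMIs the median number of genes per cell was 1084 in cluster 6 and 1091 in the other mesenchyme. The median mitochondrial share was 4.54% in cluster 6 and 4.34% in the other mesenchyme. The libraries shared 71 cell barcodes with each other, of which 8 lay in cluster 6. The authors clustered the cells on these same genes, so every difference between cluster 6 and the rest is a description and has no test or p-value. All intervals in parentheses are 95% intervals that cover counting error only.

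Most facial mesenchyme derives from cranial neural crest cells that migrate into the arches and there take on positions along a proximal to distal and an oral to aboral axis. Nested expression of the Dlx homeobox genes, Hand2 and the endothelin receptor Ednra marks the first axis, and Lhx6, Lhx8 and Gsc mark the second. Signals of the WNT, FGF, BMP and hedgehog families from the overlying epithelium set much of this pattern, and later decide where teeth, cartilage, bone and loose connective tissue form. Igf1 encodes insulin-like growth factor 1, a secreted growth signal. Rspo3 encodes R-spondin 3, a secreted protein that raises the response of cells to WNT. Twist2 encodes a basic helix-loop-helix transcription factor of mesenchyme and dermal precursors. Pax1 encodes a paired-box transcription factor known from the pharyngeal pouches and the sclerotome. Epha3 encodes a receptor tyrosine kinase for ephrin-A ligands.

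The label was first checked against its own markers and those of the other cell types. All 5 markers were higher in cluster 6 than in each of the 10 other mesenchymal clusters. Levels are given as CPM, the UMIs of a gene per 1000000 UMIs summed over the cells of a cluster, and a fold is the CPM in cluster 6 over the CPM of the other mesenchyme. A gene was called higher or lower at 1.5-fold or more with an interval that excludes 1, given at least 20 UMIs over both groups. By this rule 683 of 12655 genes (5.4%) were called higher and 665 (5.25%) lower. Since the cells were clustered on these genes, nothing is read from how the markers compare with these shares. Free RNA in the droplets gives some UMIs of most genes to every cell, so the level in erythroid cells, computed without haemoglobin genes, is given as a background. It is no floor, since the 10 genes with the lowest fold, given further on, were at or below it in cluster 6.

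Igf1 was at 350.3 CPM in cluster 6, against 13.97 to 104 CPM with a median of 41.6 in the 10 other clusters, and was 6.32-fold higher (5.82 to 6.86) in cluster 6 than in the other mesenchyme as a whole (55.4 CPM). Its level in erythroid cells was 35.7 CPM, close to the median of the other clusters. Rspo3 was at 129.6 CPM in cluster 6, against 9.27 to 36.9 CPM with a median of 17.8 in the 10 other clusters, and was 6.65-fold higher (5.80 to 7.62) than in the other mesenchyme at 19.5 CPM. Both secreted factors thus stood apart from every other cluster, Igf1 with cluster 4 next and Rspo3 with cluster 8 next.

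The transcription factor Twist2 was at 338 CPM in cluster 6, against 35.6 to 155 CPM with a median of 74.3 in the 10 other clusters. It was 3.94-fold higher (3.64 to 4.26) than in the other mesenchyme (85.7 CPM), and cluster 3 was next. Pax1 was at 115 CPM in cluster 6, against 3.37 to 38.4 CPM with a median of 16.2 in the 10 other clusters. It was 6.70-fold higher (5.79 to 7.74) than in the other mesenchyme at 17.2 CPM. The receptor gene Epha3 was at 152 CPM in cluster 6, against 6.31 to 77.6 CPM with a median of 17.3 in the 10 other clusters, and was 5.47-fold higher (4.84 to 6.18) than in the other mesenchyme at 27.8 CPM. The next cluster was cluster 8 for Pax1 and cluster 3 for Epha3, each below the level of cluster 6.

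**Figure D1:**
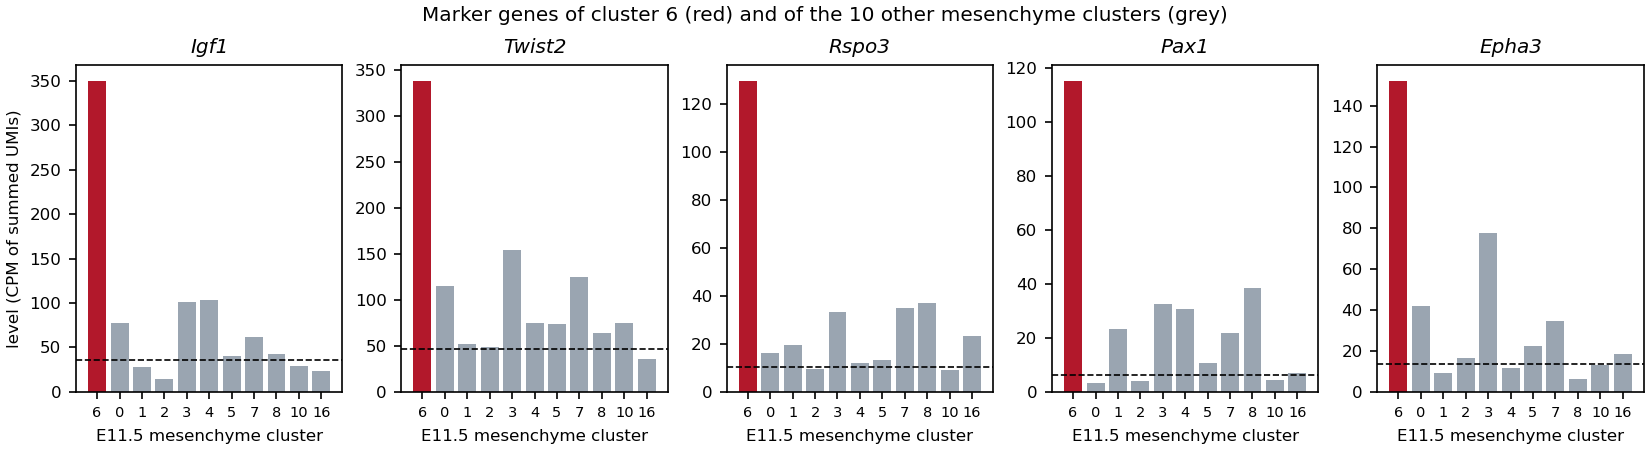
Level of the 5 markers (CPM, vertical axis) in each of the 11 mesenchymal clusters of the E11.5 library, 1 bar per cluster and 1 panel per gene, with cluster 6 in red on the left and the others in grey; the dashed line is the level in erythroid cells without haemoglobin. The red bar is the tallest in each panel, and the nearest grey bar belongs to cluster 4 for Igf1, to cluster 3 for Twist2 and Epha3, and to cluster 8 for Rspo3 and Pax1.

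Shares of cells gave the same order. With each cell thinned to 2000 UMIs, an Igf1 UMI was found in 35.5% (31.3 to 39.9%) of cluster 6 cells, in 9.76% (8.98 to 10.6%) of the other mesenchyme and in 2.85% of erythroid cells. Without thinning the Igf1 shares were 53.9% in cluster 6, 23.2% in the other mesenchyme and 13.2% in erythroid cells, whose median depth was 13137 UMIs. Twist2 was found after thinning in 43.1% (38.7 to 47.6%) of cluster 6 cells, 14.4% (13.5 to 15.4%) of the other mesenchyme and 4.39% of erythroid cells. Thinned cells with a Rspo3 UMI made up 15.4% (12.3 to 18.8%) of cluster 6, 3.67% (3.18 to 4.20%) of the other mesenchyme and 0.439% of erythroid cells. Those with a Pax1 UMI made up 13.6% (10.7 to 16.9%) of cluster 6, 2.80% (2.37 to 3.27%) of the other mesenchyme and 0.658% of erythroid cells. For Epha3 the shares were 25.7% (21.97 to 29.8%) of cluster 6, 4.93% (4.37 to 5.54%) of the other mesenchyme and 1.10% of erythroid cells. Each marker's share in cluster 6 lay above its shares in the other mesenchyme and in erythroid cells, with intervals that did not meet. Of the single other clusters, cluster 3 had the highest thinned shares of Igf1 (17.3%), Twist2 (24.5%) and Epha3 (13.6%). The highest was 7.82% in cluster 7 for Rspo3 and 7.85% in cluster 8 for Pax1. Haemoglobin made up 65.7% of erythroid UMIs, so the thinned background shares may be too low.

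Most cells of the cluster held at least 1 marker, and the share with several depended on depth. After thinning, 77.2% of cluster 6 cells (73.3 to 80.8%) held a UMI of at least 1 of the 5 markers, against 29.1% (27.9 to 30.4%) of the other mesenchyme. At least 2 markers were found in 40.1% of cluster 6 cells (35.8 to 44.6%) and in 5.76% (5.15 to 6.42%) of the other mesenchyme, and at least 3 in 13.6% of cluster 6 cells (10.7 to 16.9%) and 0.630% (0.437 to 0.879%) of the other mesenchyme. Without thinning, at least 3 markers were found in 43.5% of cluster 6 cells and 6.74% of the other mesenchyme. No marker was found in 22.8% of thinned cells of cluster 6 and 52.6% of those of cluster 3. Without thinning these shares were 11.98% in cluster 6 and 21.7% in cluster 3. Of the 10 pairs of markers, the share of cluster 6 cells with both lay within counting error of the product of the single shares for 8. Igf1 and Rspo3 were found together in 8.38% of cells (6.11 to 11.2%), against a product of 5.46%. Twist2 and Rspo3 were found together in 8.98% (6.63 to 11.8%), against a product of 6.63% at the edge of the interval. Without thinning, where depth differs between cells, the share lay above the product except for the pairs of Epha3 with Igf1, Rspo3 and Pax1. Rspo3 and Pax1 were then found together in 14.97% of cells, against a product of 8.25%. Rspo3 and Epha3 were found together in 11.8%, against a product of 13.4%. No test was made of these shares.

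Of the markers, Igf1 lies at chr10:87858265-87937042 (plus strand), Rspo3 at chr10:29452416-29535867 (minus strand) and Epha3 at chr16:63543534-63864175 (minus strand) in GRCm38. The 250 bases before the start of Twist2 and Pax1, the transcription factor genes among the markers, are shown because both mark the cluster and differ in how they follow the cell cycle, as given further on. They run 5′ to 3′ on the gene's own strand, from RefSeq on GRCm38.p6. Twist2 lies at chr1:91801461-91848028 and Pax1 at chr2:147361925-147393295, both on the plus strand. The Twist2 bases end just before the annotated gene, and the Pax1 bases lie inside the intron of a longer annotated Pax1 transcript, before the start that RefSeq gives.
Twist2 chr1:91801211-91801460: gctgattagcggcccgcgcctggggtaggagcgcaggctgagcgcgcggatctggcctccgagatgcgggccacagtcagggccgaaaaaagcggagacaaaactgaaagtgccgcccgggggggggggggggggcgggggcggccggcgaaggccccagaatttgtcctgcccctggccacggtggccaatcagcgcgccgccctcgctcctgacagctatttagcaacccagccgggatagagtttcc
Pax1 chr2:147364744-147364993: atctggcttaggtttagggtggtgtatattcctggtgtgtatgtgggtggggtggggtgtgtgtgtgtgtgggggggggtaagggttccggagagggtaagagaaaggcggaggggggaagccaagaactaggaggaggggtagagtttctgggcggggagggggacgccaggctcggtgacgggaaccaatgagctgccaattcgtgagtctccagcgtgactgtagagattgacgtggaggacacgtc
Matches to CANNTG, the E-box that TWIST factors are known to bind, and to AGGTCA, the half-site of nuclear receptors such as the products of Nr2f1 and Nr2f2, were searched on both strands. Neither sequence held a match to either motif, so no base is in capitals. Of 32851 windows of the same length before RefSeq starts, 66.2% held CANNTG and 14.02% held AGGTCA. The GC content was 68.8% before Twist2 and 58.8% before Pax1.

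Markers of other cell types stood near their levels in the other mesenchymal clusters. The 8 mesenchymal markers, among them Prrx1, Pdgfra and Col1a1, summed to 2302 CPM in cluster 6, against 1274 to 2235 CPM in the 10 other clusters. The 8 skeletal muscle markers summed to 26.8 CPM, against 20.03 to 39.9 CPM in the other clusters, with Myf5 and Pax7 at 0 UMIs. The 7 endothelial markers summed to 27.6 CPM, against 22.95 to 50.8 CPM, with Tek at 0. The 8 epithelial markers summed to 38.0 CPM, against 27.7 to 46.7 CPM, with Cdh1 at 0. The 6 erythroid markers summed to 11751 CPM, against 11608 to 11830 CPM, a level common to all mesenchymal clusters. All these sums lay within the range of the other clusters, except that of the mesenchymal markers, which lay above it.

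The 6 macrophage markers summed to 2.93 CPM in cluster 6, against 3.27 to 8.13 CPM in the other clusters, with C1qa, Csf1r, Tyrobp and Cx3cr1 at 0. The 7 markers of pericytes and smooth muscle summed to 32.2 CPM, against 20.4 to 48.9 CPM, with Kcnj8 and Abcc9 at 0. The 5 neuronal markers summed to 111 CPM, against 27.3 to 199 CPM, with Elavl3 and Isl1 at 0. Of these Stmn2 and Tubb3 were called higher and Isl1 lower. The 6 markers of Schwann cells and glia summed to 13.8 CPM, just above the 2.03 to 12.2 CPM of the other clusters. Of these Fabp7 was called higher, at 7.94 CPM in cluster 6 and 2.38 CPM in the other mesenchyme, while the defining Sox10 and Foxd3 were at 0 UMIs.

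The 20 genes with the highest fold, taken by a rule of size from 89 that met its limits, held all 5 markers and a mixed set of other genes. First was Rprm, which encodes Reprimo, a p53-induced inhibitor of the cell cycle, at 40.96 CPM in cluster 6, against 0.526 to 14.7 CPM with a median of 2.11 in the 10 other clusters. Its level was 8.31-fold higher (6.42 to 10.7) than the 4.93 CPM of the other mesenchyme. Smoc2, which encodes a secreted calcium-binding matrix protein, was at 58.9 CPM in cluster 6 and 9.91 CPM in the other mesenchyme, 5.95-fold higher (4.85 to 7.25). Its highest other level, 55.5 CPM in cluster 7, came close to that of cluster 6. Fst, which encodes follistatin, a secreted inhibitor of activin and BMP ligands, was at 41.4 CPM in cluster 6 and 10.3 CPM in the other mesenchyme, 4.02-fold higher (3.19 to 5.04). Sema3a, which encodes a secreted repellent of growing axons, was at 214 CPM in cluster 6 and 65.8 CPM in the other mesenchyme, 3.26-fold higher (2.96 to 3.59).

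Several of the leading genes encode transcription factors. Pou3f3, a POU factor of the proximal arches, was at 48.9 CPM in cluster 6 and 9.71 CPM in the other mesenchyme, 5.04-fold higher (4.05 to 6.23). Nr2f2, an orphan nuclear receptor (COUP-TFII), was at 210.2 CPM in cluster 6, against 4.07 to 185 CPM with a median of 28.6 in the 10 other clusters, 3.36-fold higher (3.04 to 3.70) than in the other mesenchyme. Its highest other level, in cluster 3, came close to that of cluster 6. The zinc-finger gene Zfp503 was at 123 CPM in cluster 6 and 26.99 CPM in the other mesenchyme, 4.57-fold higher (3.995 to 5.21). Klf4, also a zinc-finger gene, was at 66.04 CPM in cluster 6 and 17.5 CPM in the other mesenchyme, 3.77-fold higher (3.15 to 4.50), and the homeobox gene Irx5 at 51.4 CPM in cluster 6 and 15.7 CPM in the other mesenchyme, 3.27-fold higher (2.67 to 3.99).

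The other leading genes were of mixed roles. Mgst1, which encodes a membrane-bound glutathione transferase, was at 113 CPM in cluster 6 and 32.1 CPM in the other mesenchyme, 3.52-fold higher (3.07 to 4.02). The calcium-binding S100a6 was at 82.8 CPM in cluster 6 and 19.5 CPM in the other mesenchyme, 4.25-fold higher (3.61 to 4.98), and Dclk1, a microtubule-binding kinase, at 65.2 CPM in cluster 6 and 17.5 CPM in the other mesenchyme, 3.73-fold higher (3.11 to 4.46). Ddit4l, which encodes a stress-induced inhibitor of mTOR signalling, was at 63.9 CPM in cluster 6 and 15.4 CPM in the other mesenchyme, 4.15-fold higher (3.44 to 4.97). Dlx4os, a transcript antisense to Dlx4, was at 36.8 CPM in cluster 6 and 6.30 CPM in the other mesenchyme, 5.84-fold higher (4.50 to 7.51). The sources used here do not say whether the counting kept the strand, and whether reads of Dlx4 entered its count was not tested. Fam174b, a gene for a membrane protein, was at 59.4 CPM in cluster 6 and 18.4 CPM in the other mesenchyme, but at 98.6 CPM in erythroid cells, above its level in cluster 6.

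Of the 20 leading genes, 18 were higher in cluster 6 than in each of the 10 other clusters, where 14% of all genes tested were so, and the selection by fold fixes much of that count. The exceptions were Dlx4os, at 39.7 CPM in cluster 3, and Pou3f3, at 56.3 CPM in cluster 7. Among all 18 clusters of the library, muscle, epithelium, endothelium and blood included, cluster 6 had the highest level of 13 of them with haemoglobin left out of the erythroid totals, and of 14, Fam174b included, with it left in. The cluster with the next level was cluster 3 for 11 of the 20. Just below the 20 leading genes lay Enpp2 at 3.15-fold, Pdcd4 at 3.14-fold and Gadd45g at 3.04-fold, so the border of the set is not a gap.

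**Figure D2:**
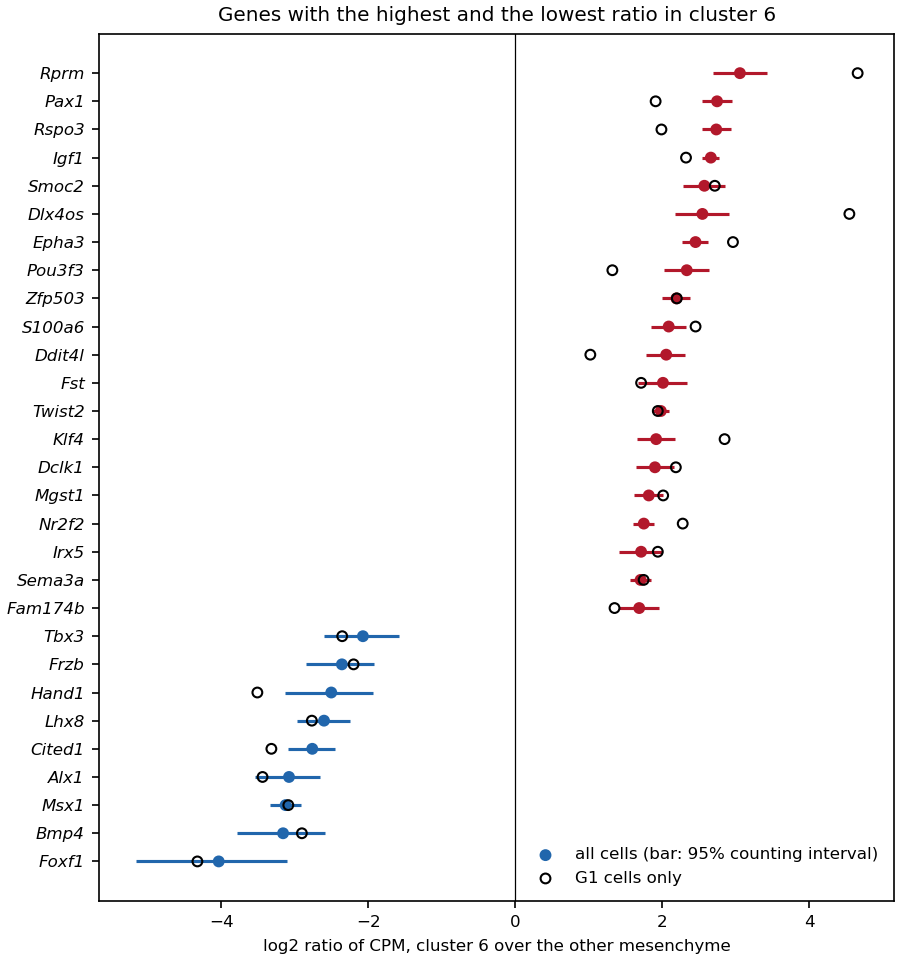
Log2 ratio of CPM in cluster 6 over the other mesenchyme (horizontal axis) for the 20 leading genes in red and 9 of the 10 lowest genes in blue, with bars for the 95% counting interval; open circles are the same ratio in G1 cells of both groups. The leading genes run from Rprm at 8.31-fold to Fam174b at 3.22-fold, and the lowest reach Foxf1 at 16.4-fold lower; the circles of all the genes drawn lie on the same side of 0 as the filled points.

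At the other end, the 10 genes with the lowest fold were mainly regulators of distal, oral and dental mesenchyme. Msx1, a homeobox gene of the distal arch and the tooth mesenchyme, was at 76.5 CPM in cluster 6, against 160.0 to 1390.2 CPM with a median of 636 in the 10 other clusters, and was 8.72-fold lower (7.54 to 10.1) than in the other mesenchyme (667 CPM). Its level in erythroid cells was 233 CPM, above that of cluster 6. With cells thinned to 2000 UMIs, Msx1 was found in 13.8% (10.9 to 17.1%) of cluster 6 cells, 54.4% (53.03 to 55.7%) of the other mesenchyme and 10.7% of erythroid cells. The level of Msx1 in cluster 6 was thus below that in erythroid cells and its share close above theirs. Most cells of the other mesenchyme held a UMI. The erythroid level is therefore no floor for this gene.

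Bmp4, which encodes a secreted BMP ligand, was at 10.4 CPM in cluster 6 and 93.3 CPM in the other mesenchyme, 8.93-fold lower (6.04 to 13.8). Foxf1, a forkhead gene and known hedgehog target, was at 3.76 CPM in cluster 6 and 61.6 CPM in the other mesenchyme, 16.4-fold lower (8.61 to 35.9), on 9 UMIs in cluster 6. The homeobox gene Alx1 was at 18.4 CPM in cluster 6 and 155 CPM in the other mesenchyme, 8.44-fold lower (6.28 to 11.6). These 3 genes were at or below their erythroid level in cluster 6, as were all 10 of the lowest genes.

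Cited1, a transcriptional co-regulator, was at 35.9 CPM in cluster 6 and 244 CPM in the other mesenchyme, and the LIM homeobox gene Lhx8 of the oral side at 27.6 CPM in cluster 6 and 167 CPM in the other mesenchyme. Hand1, a factor of the most distal arch, was at 10.4 CPM in cluster 6 and 59.2 CPM in the other mesenchyme, and Frzb, a secreted WNT antagonist, at 17.1 CPM in cluster 6 and 87.9 CPM in the other mesenchyme. Tbx3, a T-box gene, was at 14.2 CPM in cluster 6 and 59.8 CPM in the other mesenchyme. These 5 genes were between 4.21-fold lower (Tbx3) and 6.78-fold lower (Cited1). Of the 10 lowest genes, 8 were below every other cluster, where 9.59% of all genes were so, and the exceptions were Alx1 and Hand1.

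The gene lists show how the cluster stood in the known patterns of the arch. Each list is given by its measured members, those with at least 20 UMIs, and by its median log2 ratio, which was 0.0046 over all 12655 genes. Over all these genes 5.4% were called higher and 5.25% lower, the shares to set beside each count against the other mesenchyme below. Among 24 genes of jaw axis patterning, 9 were called higher and 10 lower, with a median of 0.12, so few members were near the level of the other mesenchyme. The Dlx genes split. Dlx4 was at 21.3 CPM in cluster 6 and 4.47 CPM in the other mesenchyme (4.77-fold higher, 3.41 to 6.58), and Dlx3 at 16.3 CPM in cluster 6 and 3.49 CPM in the other mesenchyme (4.66-fold higher, 3.17 to 6.74). Dlx1 (1.59-fold higher, 1.29 to 1.94) and Dlx2 (1.52-fold higher, 1.29 to 1.77) were called higher by smaller folds, while Dlx5 was at 88.2 CPM in cluster 6 and 162 CPM in the other mesenchyme, 1.84-fold lower (1.61 to 2.12). Dlx6 was at 43.1 CPM in cluster 6 and 41.2 CPM in the other mesenchyme and was not called.

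The nuclear receptor gene Nr2f1, a close relative of Nr2f2, was at 194 CPM in cluster 6 and 74.2 CPM in the other mesenchyme, 2.62-fold higher (2.37 to 2.89). Ednra, the endothelin receptor, was at 63.1 CPM in cluster 6 and 36.2 CPM in the other mesenchyme, 1.74-fold higher (1.46 to 2.07), and Meis1 was also called higher. Hand2, the distal factor that endothelin signalling is known to induce, was at 95.3 CPM in cluster 6 and 77.5 CPM in the other mesenchyme and was not called, nor was Gsc of the aboral side at 233 CPM in cluster 6 and 163 CPM in the other mesenchyme. Msx1, Msx2, Alx1, Alx4, Hand1, Eya1 and Dlx5 were among the called lower members. Msx2 was at 21.7 CPM in cluster 6 and 75.1 CPM in the other mesenchyme, 3.46-fold lower (2.63 to 4.64).

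Oral and dental regulators were also mostly below the other mesenchyme, with 4 of 18 called higher and 9 called lower. Their median log2 ratio was -0.96. Foxf1, Foxf2, Lhx6, Lhx8, Pax9, Six2, Foxd1, Tbx22 and Osr2 were the lower members, and Pax9, a factor of the tooth mesenchyme, was at 6.69 CPM in cluster 6 and 38.3 CPM in the other mesenchyme. The higher members were Irx5, Irx3, Osr1 and Tbx15. Irx3 was at 104 CPM in cluster 6 and 49.96 CPM in the other mesenchyme (2.08-fold higher, 1.82 to 2.38), and Osr1, a zinc-finger gene, at 231 CPM in cluster 6 and 126 CPM in the other mesenchyme (1.83-fold higher, 1.67 to 1.998). Of the 7 PAX genes, 3 were measured, and Pax1 was called higher and Pax3 and Pax9 lower. Of 8 HOX genes 6 are listed in the count table, and 0 of these reached 20 UMIs in the mesenchyme.

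Fibroblast and dermal precursor genes were the list with the most called higher beside the jaw axis, 7 of 18, beside 1 lower, and their median log2 ratio was 0.41. Beside Twist2 they were En1, Cd34, Crabp1, Pdgfra, Tbx15 and Dcn. Crabp1, which encodes a retinoic acid binding protein, was at 504 CPM in cluster 6 and 256 CPM in the other mesenchyme (1.97-fold higher, 1.85 to 2.09), and Pdgfra, the receptor of platelet-derived growth factor in mesenchyme, at 218 CPM in cluster 6 and 127 CPM in the other mesenchyme (1.71-fold higher, 1.56 to 1.88). En1, a homeobox gene, was at 2.51 CPM in cluster 6 and 0.458 CPM in the other mesenchyme (5.47-fold higher, 1.75 to 14.7), on 6 UMIs in cluster 6. Cd34 was at 21.3 CPM in cluster 6 and 6.07 CPM in the other mesenchyme (3.51-fold higher, 2.53 to 4.78). The collagens and other fibrillar matrix genes had a median of 0.37 with 3 of 21 called higher and 2 lower. Col1a1 was at 352 CPM in cluster 6 and 169 CPM in the other mesenchyme (2.08-fold higher, 1.93 to 2.24), and Sparc (1.64-fold higher, 1.45 to 1.85) and Col3a1 (1.57-fold higher, 1.48 to 1.66) were also called higher.

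Genes of cartilage and bone were more often lower than higher. Of 10 measured genes of chondrogenesis, 1 was called higher and 6 were called lower, with a list median of -1.07, and Sox9, the master regulator of cartilage, was at 15.9 CPM in cluster 6 and 31.9 CPM in the other mesenchyme (2.01-fold lower, 1.45 to 2.85). The higher gene was Col11a1, a fibrillar collagen, at 1.74-fold higher (1.43 to 2.11). Of 10 measured genes of osteogenesis, 0 were called higher and 5 lower, among them Sp7 and Alpl, and 3 of the 5 also stand in the jaw axis list. Of 4 measured tendon genes none was called. Against cluster 3 alone, 0 genes of chondrogenesis were called, and of osteogenesis 0 were called higher and 1 lower. Over all genes 5.21% were called higher and 4.76% lower in that comparison.

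Growth factor systems differed by their members. In the IGF system 3 of 16 genes were called higher and 2 lower, with a median of 0.044. Beside Igf1, the binding protein Igfbp3 was at 79.8 CPM in cluster 6 and 34.3 CPM in the other mesenchyme (2.33-fold higher, 1.99 to 2.71) and the receptor substrate Irs1 was called higher, while Irs2 and Igfbp7 were called lower. The IGF1 receptor Igf1r was at 42.2 CPM in cluster 6 and 40.6 CPM in the other mesenchyme and was not called. In the R-spondin and WNT system 4 of 34 genes were called higher and 6 lower, with a median of -0.074. Rspo1 was at 25.9 CPM in cluster 6 and 8.88 CPM in the other mesenchyme (2.92-fold higher, 2.18 to 3.84), whereas Rspo2 was at 8.78 CPM in cluster 6 and 30.7 CPM in the other mesenchyme (3.50-fold lower, 2.27 to 5.67), so the R-spondin genes differed in direction. Axin2, a feedback target of WNT signalling, was at 67.3 CPM in cluster 6 and 37.8 CPM in the other mesenchyme (1.78-fold higher, 1.50 to 2.10), and Nkd1, also a feedback inhibitor, at 124 CPM in cluster 6 and 60.2 CPM in the other mesenchyme (2.05-fold higher, 1.81 to 2.32). Of the R-spondin receptors, Lgr4 was at 6.69 CPM in cluster 6 and 10.7 CPM in the other mesenchyme and Lgr5 at 4.60 CPM in cluster 6 and 5.53 CPM in the other mesenchyme, and neither was called. The lower genes were Frzb, Rspo2, Dkk3, Notum, Wnt5a and Sfrp2.

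FGF genes were the signalling list with the most called lower, 9 of 16, beside 1 higher, and their median log2 ratio was -1.16. The 1 higher gene is 6.25% of the list, near the 5.4% of all genes, of which 5.25% were called lower. The lower members included the feedback and target genes of FGF signalling Dusp6, Etv4, Etv5, Spry1, Spry2 and Spry4. Dusp6, a phosphatase that turns off ERK, was at 7.11 CPM in cluster 6 and 40.97 CPM in the other mesenchyme (5.77-fold lower, 3.59 to 9.92), and Etv4 at 2.09 CPM in cluster 6 and 19.9 CPM in the other mesenchyme (9.50-fold lower, 4.05 to 29.3). The single higher gene was the ligand Fgf7 at 8.78 CPM in cluster 6 and 1.72 CPM in the other mesenchyme (5.11-fold higher, 2.95 to 8.52), on 21 UMIs in cluster 6. In G1 cells of both groups, 1 of 12 measured genes of the list was called higher and 5 lower. Over all genes 4.96% and 4.31% were so called. Against cluster 3 alone, 1 gene of the list was called higher and 0 lower, where 5.21% and 4.76% of all genes were. Of 19 BMP genes 0 were called higher and 6 lower, with a median of -0.36, among them Bmp4, Bmp7 and the target genes Id2 and Id3.

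Of 11 hedgehog genes 2 were called higher and 3 lower, with a median of -0.42. The lower genes were Ptch1, a receptor and target gene, at 6.69 CPM in cluster 6 and 16.6 CPM in the other mesenchyme (2.48-fold lower, 1.51 to 4.37), and the transcription factors Gli1 and Gli3. The higher genes were the co-receptors Cdon at 25.5 CPM in cluster 6 and 6.99 CPM in the other mesenchyme (3.65-fold higher, 2.71 to 4.85) and Gas1 at 227 CPM in cluster 6 and 149.5 CPM in the other mesenchyme (1.52-fold higher, 1.38 to 1.66). Against cluster 3 alone, 1 hedgehog gene was called higher and 0 lower, where 5.21% and 4.76% of all genes were. Among 8 measured Notch genes 3 were called higher and 1 lower, with a median of 0.091. The ligand Jag1 was at 10.4 CPM in cluster 6 and 3.81 CPM in the other mesenchyme (2.74-fold higher, 1.71 to 4.23), and the target Hey2 at 27.2 CPM in cluster 6 and 8.36 CPM in the other mesenchyme (3.25-fold higher, 2.44 to 4.26), whereas its relative Hey1 was at 3.76 CPM in cluster 6 and 17.5 CPM in the other mesenchyme (4.66-fold lower, 2.44 to 10.2). In G1 cells of both groups, 1 of the 8 Notch genes was called higher and 1 lower, where 4.96% and 4.31% of all genes were. Within cluster 6, Jag1 and Hey2 were called higher in S and G2M cells than in G1 cells. Hes1, the remaining higher Notch gene, was called lower there. In the TGF-beta list 3 of 11 were called higher, Fst, Tgfbr3 and Tgfb2, and 1 lower, Inhba, with a median of -0.056.

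Among 14 retinoic acid genes 3 were called higher and 3 lower, with a median of 0.14. The higher genes were the retinol transporter Stra6 (2.75-fold higher, 1.99 to 3.71), Crabp1 and the receptor Rarb (1.75-fold higher, 1.36 to 2.23), and the lower genes were Rbp4 and the enzymes Aldh1a2 and Aldh1a3. Among 17 measured Eph receptors and ephrins 4 were called higher, Epha3, Ephb6, Efna5 and Efnb1, and 2 lower, Efna1 and Epha7, with a median of 0.15. Efna5, which encodes an ephrin-A ligand, was at 55.6 CPM in cluster 6 and 25.6 CPM in the other mesenchyme (2.17-fold higher, 1.80 to 2.61), so receptor and ligand genes of this family were both higher in the cluster. Of 18 semaphorin, slit and chemokine genes 3 were called higher, Sema3a, Ntn1 and Robo2, and 1 lower, Slit2, at 5.02 CPM in cluster 6 and 19.3 CPM in the other mesenchyme (3.84-fold lower, 2.18 to 7.47), with a median of -0.056. Of 14 adhesion genes 3 were called higher, Pcdh19, Cdh11 and Pcdh18, and 1 lower, Pcdh7, with a median of 0.19. The lower shares of the semaphorin (5.56%) and adhesion (7.14%) lists are near the 5.25% of all genes called lower. In the list of TWIST, PRRX and other factors of the transition from epithelium to mesenchyme, 2 of 15 were called higher, Twist2 and Tcf4, and 4 lower, Snai1, Id2, Prrx2 and Id3, with a median of -0.032. Of 7 PDGF and VEGF genes Pdgfra alone was called, higher, with a median of 0.096.

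**Figure D3:**
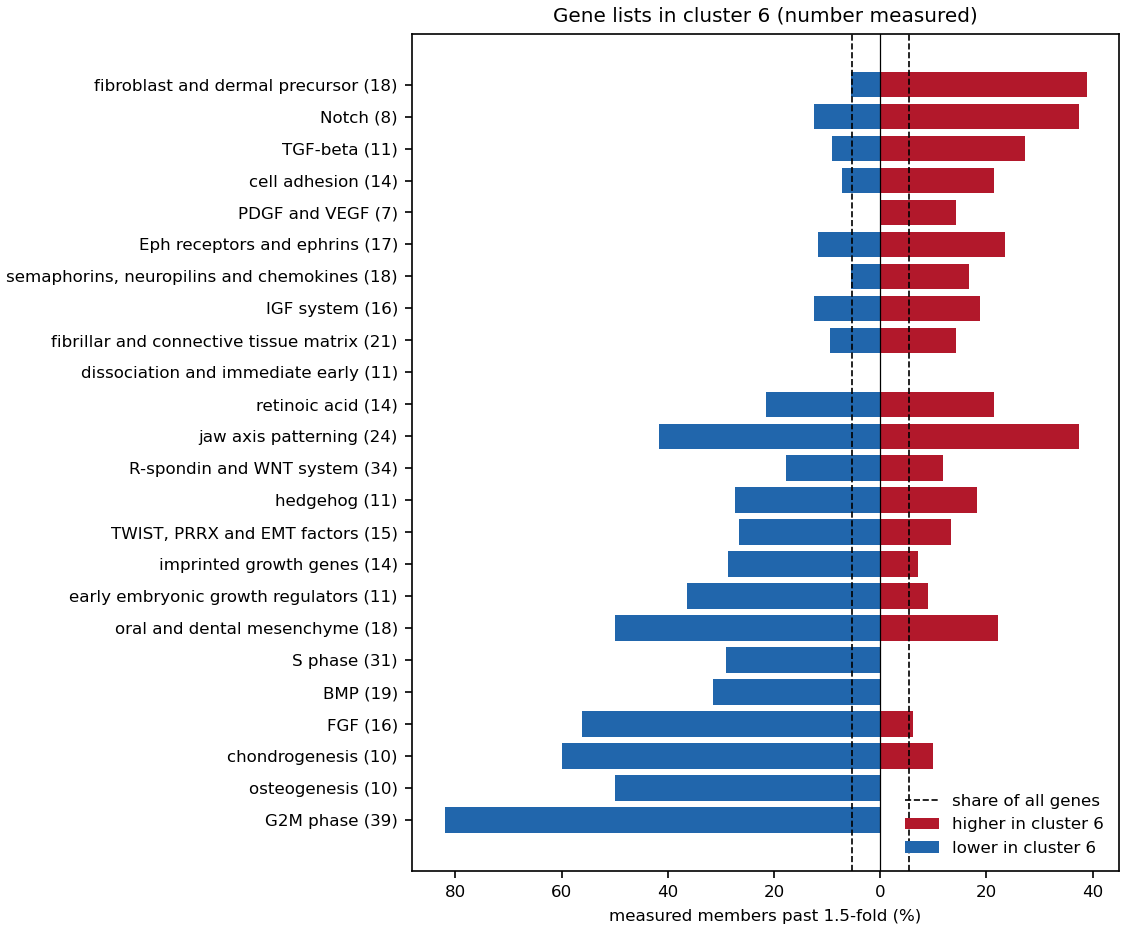
Percent of the measured members of each list called higher (red, to the right) and lower (blue, to the left) in cluster 6 against the other mesenchyme, for lists with at least 5 measured members; dashed lines mark the 5.4% and 5.25% of all genes. Fibroblast, Notch and jaw axis genes reach furthest to the right, and G2M, chondrogenesis, FGF, oral and bone genes furthest to the left.

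Cluster 6 held a smaller share of dividing cells than the other mesenchyme as a whole, near those of clusters 5 and 8. By the authors' phase calls 32.3% of its cells (28.3 to 36.6%) were in S or G2M, against 71.6% (70.4 to 72.8%) of the other mesenchyme. The shares in the 10 other clusters ran from 31.3% in cluster 5 and 35.4% in cluster 8 to 97.8% in cluster 3, with a median of 77.2%. With cells thinned to 2000 UMIs, Mki67 or Top2a, 2 genes of dividing cells, were found in 21.2% of cluster 6 cells (17.7 to 25.0%) and in 42.3% (41.0 to 43.7%) of the other mesenchyme. By these genes cluster 6 lay above cluster 5 at 17.4% (14.5 to 20.7%) and cluster 8 at 19.2% (15.5 to 23.5%), whose intervals overlap its own, and the order of these 3 clusters is not settled by either measure. Among 4000 to 10000 UMIs per cell the S or G2M share of cluster 6 was 45.4% (39.4 to 51.4%), so the share depended on the depth of the cells counted. Of 39 genes of the G2M phase 0 were called higher and 32 were called lower (median log2 ratio -0.85), and of 31 genes of the S phase 0 and 9 (median -0.35). Top2a was at 130.0 CPM in cluster 6 and 303 CPM in the other mesenchyme (2.33-fold lower, 2.08 to 2.61). In G1 cells of both groups 0 of 38 measured G2M genes were called higher and 7 lower. Over all genes 4.96% were called higher and 4.31% lower in G1 cells.

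The leading genes were also compared within each phase. Within G1 cells alone, where 4.96% of 10739 genes were called higher and 4.31% lower, all 20 leading genes were called higher and all 10 lowest genes lower. The genes were chosen by their fold over cells of all phases, so the selection fixes much of the counts in each phase. In G1 cells Igf1 was at 309 CPM in cluster 6 and 61.8 CPM in the other mesenchyme, 5.001-fold higher (4.38 to 5.71), and Twist2 at 328 and 85.5 CPM, 3.83-fold higher (3.40 to 4.32). In S cells 18 of the 20 and in G2M cells 16 were called higher, where 3.58% and 3.19% of all genes were, and all 10 lowest genes were called lower in both, where 2.46% and 2.27% of all genes were. Rprm and Klf4 were not called in S cells, and Rprm, Klf4, Dlx4os and S100a6 were not called in G2M cells.

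Inside cluster 6, the leading genes did not keep 1 level across the cell cycle. The 162 cells called S or G2M were set against the 339 called G1, with medians of 5810.5 UMIs per cell in S or G2M and 3850 in G1. Of 7922 genes measured, 446 (5.63%) were called higher in the cycling cells and 303 (3.82%) lower. Of the 20 leading genes 5 were higher in the cycling cells, 8 were lower and 7 were not called. Since the clustering used all these cells, and the comparison was chosen after values were seen, these are descriptions as well.

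Rspo3 and Pax1 were on the side of the cycling cells. Pax1 was at 173 CPM in S and G2M cells and 74.8 CPM in G1 cells of cluster 6, 2.31-fold higher (1.80 to 2.98). Rspo3 was at 191 CPM in cycling cells and 86.2 CPM in G1 cells, 2.22-fold higher (1.76 to 2.81). In clusters 0, 4, 5, 7 and 8, the other mesenchymal clusters with at least 100 cells in both phase groups, the same ratio ran from 0.492 to 1.38 for Pax1 and from 0.480 to 1.23 for Rspo3. Both ratios of cluster 6 lay above those of the 5 clusters, in which both genes are low. Pou3f3 was at 78.9 CPM in cycling cells and 27.8 CPM in G1 cells (2.84-fold higher, 1.91 to 4.28), Ddit4l at 98.1 CPM in cycling cells and 39.9 CPM in G1 cells (2.46-fold higher, 1.75 to 3.48) and Fst was 1.77-fold higher (1.17 to 2.70).

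Rprm showed the opposite, at 11.1 CPM in S and G2M cells and 61.98 CPM in G1 cells of cluster 6, 5.57-fold lower (2.97 to 11.6). The other genes called lower in the cycling cells were Dlx4os (3.17-fold lower, 1.83 to 5.84), Klf4 (3.01-fold lower, 2.01 to 4.64), S100a6 (2.47-fold lower, 1.75 to 3.53), Smoc2 (2.13-fold lower, 1.44 to 3.22) and Mgst1 (1.80-fold lower, 1.37 to 2.38). Nr2f2 was at 145 CPM in cycling cells and 256 CPM in G1 cells (1.77-fold lower, 1.46 to 2.17), and Epha3 at 112 CPM in cycling cells and 180.3 CPM in G1 cells (1.61-fold lower, 1.28 to 2.03). The ratios of Nr2f2 in the 5 other clusters ran from 0.892 to 1.58 and those of Epha3 from 0.50 to 1.28. Igf1, at 409 CPM in cycling and 309 CPM in G1 cells, and Twist2, at 353 CPM in cycling cells and 328 CPM in G1 cells, were not called. The 5 markers of the cluster were thus divided into Rspo3 and Pax1 on one side, Epha3 on the other and Igf1 and Twist2 between.

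The jaw axis genes showed the same kind of split, with 3 of 22 measured called higher in the cycling cells and 8 lower. The lower genes were Dlx1, Dlx2, Dlx4, Dlx5, Dlx6, Meis2, Nr2f1 and Nr2f2. Dlx5 was at 46.5 CPM in S and G2M cells and 118 CPM in G1 cells, 2.53-fold lower (1.81 to 3.59), where the ratio of cycling over G1 cells in the 5 other clusters ran from 0.833 to 1.59. Dlx2 was at 51.6 CPM in cycling cells and 92.6 CPM in G1 cells (1.80-fold lower, 1.29 to 2.53). The higher genes were Hand2, at 129 CPM in cycling cells and 71.2 CPM in G1 cells (1.82-fold higher, 1.39 to 2.38), Mef2c and Pou3f3. Of 14 measured fibroblast genes Lum was called higher and Pdgfra, Ebf1, Col6a1 and Col6a3 lower, and of 18 matrix genes Col6a1, Col6a2 and Col6a3 were called lower. In the WNT list Axin2 (1.59-fold higher, 1.15 to 2.19), Dkk1 (2.49-fold higher, 1.64 to 3.84) and Rspo3 were higher and Rspo1 (3.27-fold lower, 1.68 to 6.95), Fzd2 and Tcf7l2 lower of 20. Of 6 measured genes of the response to tissue dissociation, 0 were called higher in the cycling cells and 2 lower. Their median log2 ratio was 0.14. The lower genes, the immediate early genes Jun at 20.2 CPM in S and G2M cells and 43.5 CPM in G1 cells (2.15-fold lower, 1.28 to 3.76) and Ier2 at 87.97 CPM in S and G2M cells and 159.6 CPM in G1 cells (1.81-fold lower, 1.41 to 2.35), moved with Klf4 and the other genes lower in cycling cells, and their part in those results was not tested. By comparison, 21 of 31 S phase genes and 37 of 37 measured G2M genes were higher in the cells called S or G2M. The sources used here do not give the gene lists behind the calls, which may hold many of these genes.

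**Figure D4:**
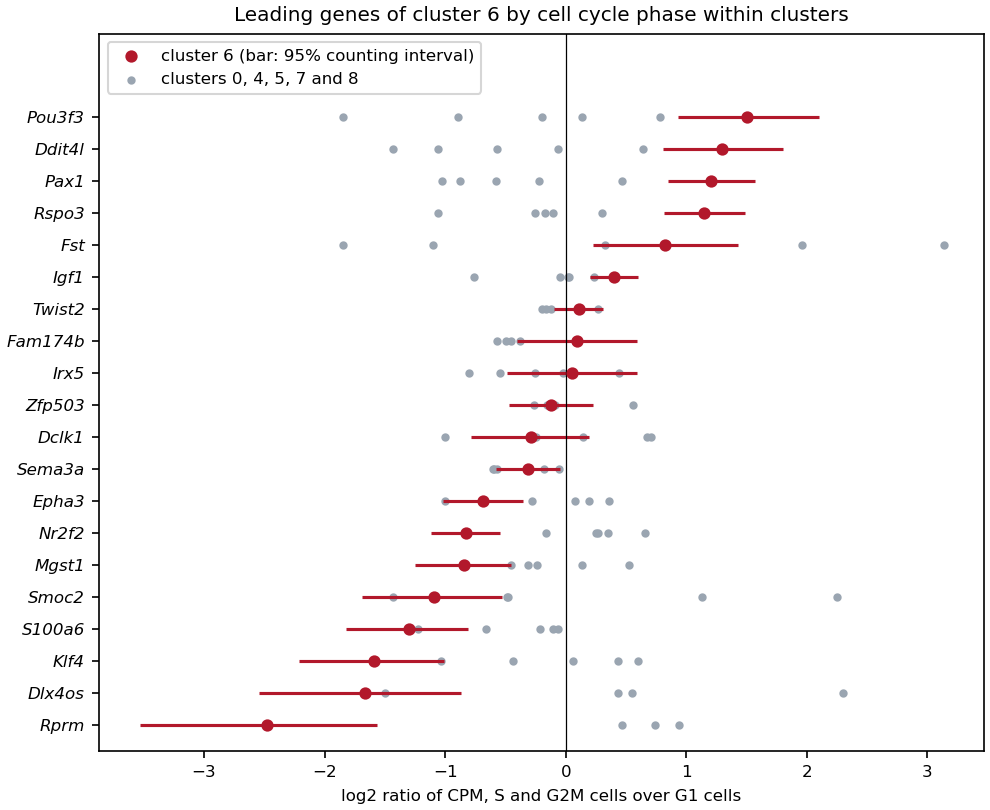
Log2 ratio of CPM in S and G2M cells over G1 cells (horizontal axis) for the 20 leading genes (rows), in cluster 6 (red, with 95% counting bars) and in clusters 0, 4, 5, 7 and 8 (grey points; a cluster with 0 UMIs in a phase is not drawn). The red points of Pax1 (2.31-fold) and Rspo3 (2.22-fold) lie right of 0 and right of all their grey points, and those of Rprm and Nr2f2 lie left of 0 and left of the grey points drawn for them.

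Of the other mesenchyme, cluster 3 was the most like cluster 6. Over 3514 genes, Pearson's r between the clusters' log2(CPM + 1) values, each centred across the clusters of the stage, was 0.37 with cluster 3, 0.27 with cluster 7, 0.21 with cluster 5 and 0.13 with cluster 8, and ran down to -0.60 with clusters 2 and 16. These are descriptions over genes of clusters from 1 library, and genes are not independent replicates. Clusters 3, 5 and 8 were taken for direct comparison, cluster 3 as the most like and clusters 5 and 8 for their similar phase shares. The leading and lowest genes were chosen by their fold over a pool that holds these clusters. That selection fixes much of how many are called again below.

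Against the 642 cells of cluster 3, 528 genes (5.21% of 10139) were called higher in cluster 6 and 483 (4.76%) lower. All 5 markers and 16 of the 20 leading genes were among the higher, the exceptions being Dlx4os, Klf4, Nr2f2 and Irx5. The highest folds were those of Ddit4l (5.56-fold higher, 4.02 to 7.79), the secreted WNT inhibitor Dkk1 at 42.6 CPM in cluster 6 and 8.57 CPM in cluster 3 (4.97-fold higher, 3.40 to 7.42), and Hpgd, an enzyme that breaks down prostaglandins, at 58.9 CPM in cluster 6 and 12.4 CPM in cluster 3 (4.75-fold higher, 3.45 to 6.61). Igf1 was 3.47-fold higher (3.09 to 3.90) and Twist2 2.19-fold higher (1.97 to 2.43). The genes with the lowest fold against cluster 3 were those of cell division, such as Top2a and Nusap1, beside S or G2M shares of 32.3% in cluster 6 and 97.8% in cluster 3. Of the 10 lowest genes 6 were lower than in cluster 3, and Hand1 was called higher, 2.21-fold (1.19 to 4.14).

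The comparison with cluster 3 was repeated with phase matched. The 162 cycling cells of cluster 6 were set against the 628 cycling cells of cluster 3, where 322 of 9604 genes (3.35%) were called higher and 234 (2.44%) lower. The leading genes are grouped below by the levels in cycling cells of cluster 6, which also enter this comparison. That grouping fixes part of the counts. All 5 leading genes that were higher in the cycling cells of cluster 6 were called higher than in cluster 3. Pax1 was at 173 CPM in cycling cells of cluster 6 and 32.7 CPM in those of cluster 3 (5.29-fold higher, 4.21 to 6.66), Rspo3 at 191 CPM in cluster 6 and 33.8 CPM in cluster 3 (5.65-fold higher, 4.53 to 7.06) and Ddit4l at 98.1 CPM in cluster 6 and 11.4 CPM in cluster 3 (8.64-fold higher, 6.07 to 12.4). Of the 8 that were lower in the cycling cells of cluster 6, Smoc2 alone was called higher than in cluster 3, at 35.4 CPM in cluster 6 and 13.9 CPM in cluster 3. Dlx4os (2.48-fold lower, 1.48 to 4.43) and Klf4 (1.68-fold lower, 1.14 to 2.55) were called lower, and Nr2f2 was at 145 CPM in cluster 6 and 185 CPM in cluster 3 without a call. For 7 of these 8 genes, and for 0 of the 5 higher in cycling cells, cluster 3 was the next-highest cluster.

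Of the 7 leading genes with no phase call, 5 were higher in cycling cells of cluster 6 than in those of cluster 3. Igf1 was at 409 CPM in cluster 6 and 98.5 CPM in cluster 3 (4.15-fold higher, 3.61 to 4.77), and Twist2 at 353 CPM in cluster 6 and 157 CPM in cluster 3 (2.25-fold higher, 1.97 to 2.56). Sema3a, at 188 CPM in cluster 6 and 128 CPM in cluster 3, and Irx5, at 52.6 CPM in cluster 6 and 39.4 CPM in cluster 3, were not called. In all, 11 of the 20 leading genes were called higher in this comparison. Epha3, 1 of the 5 markers, was at 112 CPM in cluster 6 and 77.8 CPM in cluster 3, 1.44-fold (1.15 to 1.79), which is under the 1.5-fold limit.

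Against cluster 5, with 614 cells and an S or G2M share of 31.3%, 609 genes (6.25% of 9746) were called higher in cluster 6 and 282 (2.89%) lower. All 20 leading genes were among the higher and 9 of the 10 lowest among the lower. The lowest fold was that of Mecom, a zinc-finger transcription factor, at 6.69 CPM in cluster 6 and 56.01 CPM in cluster 5 (8.37-fold lower, 5.01 to 14.98), and Cited1, Frzb and Rspo2 followed. Rspo2 was at 8.78 CPM in cluster 6 and 52.4 CPM in cluster 5 (5.98-fold lower, 3.78 to 9.92), so Rspo2 was higher in cluster 5 and Rspo3 in cluster 6.

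Against cluster 8, with 395 cells and a share of 35.4%, 660 genes (7.07% of 9340) were called higher in cluster 6 and 328 (3.51%) lower. The leading genes were higher for 19 of 20, the exception being Fam174b, and 7 of the 10 lowest genes were lower. Epha3 was 24.1-fold higher (13.9 to 45.7) and Nr2f2 13.97-fold higher (9.71 to 20.8), and the transcription factor genes Foxp2, Bnc2 and Nr2f1 were also among the highest folds, with Nr2f1 at 194 CPM in cluster 6 and 15.5 CPM in cluster 8. Bmp4, at 10.4 CPM in cluster 6 and 188 CPM in cluster 8, Msx1 (15.9-fold lower, 13.7 to 18.6), Hey1 and Pax3 were among the lowest.

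At E13.5 the leading genes of cluster 6 were highest in several clusters. The E13.5 library held 11 mesenchymal clusters, and of the 20 genes 4 were highest in cluster 2, 4 in cluster 12, 3 in cluster 21, 2 each in clusters 5, 6 and 11, and 1 each in clusters 0, 3 and 14. Cluster 21 had 72 cells with a median of 1833 UMIs. Cluster 14 was among the 3 highest clusters for Irx5, Igf1, Klf4, Twist2, Pax1, Smoc2, Pou3f3, Dclk1, Mgst1 and Sema3a. It was not among them for the other leading genes. By likeness over 3514 genes, E13.5 cluster 14 came first, with r = 0.47, then cluster 12 with 0.30 and cluster 0 with 0.28, down to -0.44 for cluster 5, again as a description. The libraries differ in stage, protease and filters, so levels are ordered within E13.5 and no fold is given across stages.

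The 5 markers did not share 1 highest cluster at E13.5. Igf1 was at 280.2 CPM in cluster 3 and 234 CPM in cluster 14, with a median of 152 CPM over the 11 clusters. Twist2 was at 539.6 CPM in cluster 2, 387 CPM in cluster 10 and 265 CPM in cluster 14, with a median of 143 CPM. Pax1 was at 142 CPM in cluster 2, 83.4 CPM in cluster 10 and 73.4 CPM in cluster 14, with a median of 7.46 CPM, so Pax1 and Twist2 had the same 2 leading clusters. Rspo3 was at 171 CPM in cluster 21, 169 CPM in cluster 11 and 121 CPM in cluster 2. Epha3 was at 157 CPM in cluster 21 and 143 CPM in cluster 12, and was lowest in cluster 2 at 26.5 CPM. With cells thinned to 2000 UMIs, which left 30 of the 72 cells of cluster 21, Igf1 was highest in cluster 21 and Epha3 in cluster 12, while the highest clusters of Twist2, Pax1 and Rspo3 were the same.

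Epha3 was therefore lowest at E13.5 where Twist2 and Pax1 were highest. All 3 were highest in the same cluster at E11.5, which their choice as markers of that cluster fixes. No change between stages is read from this. Cluster 2 also had the highest Dclk1, at 85.9 CPM, and Fam174b, at 81.6 CPM. Cluster 12 had the highest Smoc2 (265 CPM), Mgst1 (187 CPM), Ddit4l (107 CPM) and Pou3f3 (60.2 CPM). Rprm and Dlx4os were low in every E13.5 mesenchymal cluster, at no more than 14.8 CPM in cluster 6 and 1.78 CPM in cluster 5. Msx1, low in E11.5 cluster 6, was at 23.9 CPM in E13.5 cluster 14, the most like cluster, and reached 671 CPM in cluster 0.

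**Figure D5:**
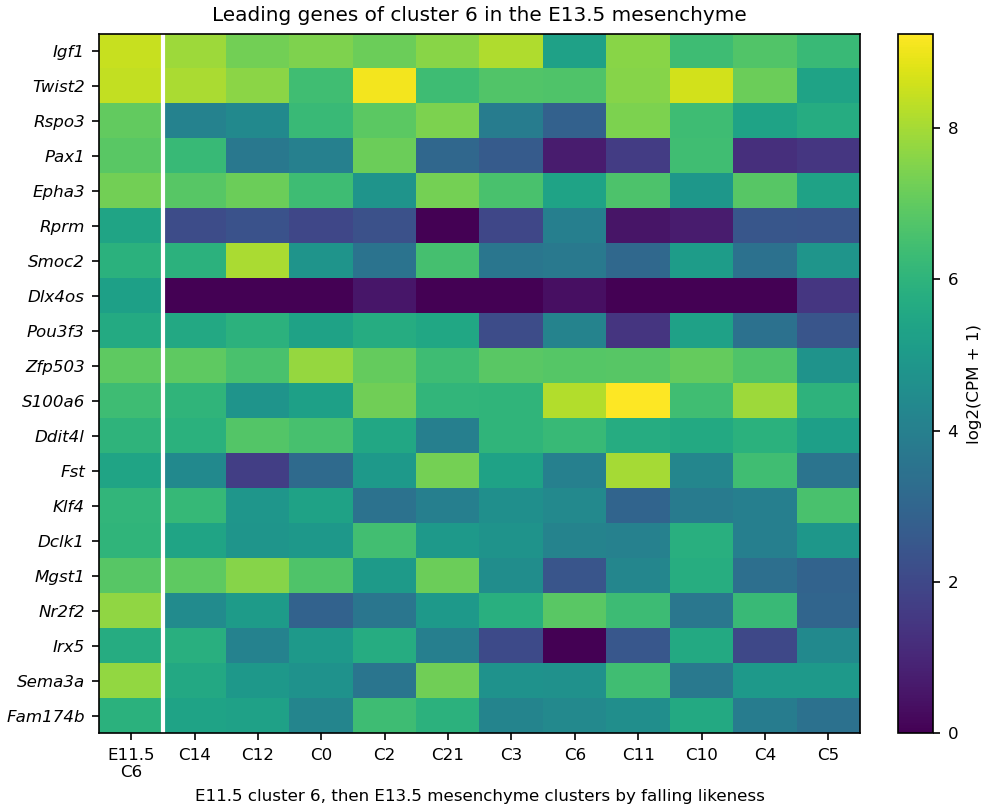
Heat map of log2(CPM + 1) of the 20 leading genes (rows) in E11.5 cluster 6 (first column) and in the 11 mesenchymal clusters of the E13.5 library, ordered from left to right by falling likeness to E11.5 cluster 6. Yellow is high and dark blue low. The bright cells of the first column are spread over several E13.5 columns: Twist2 and Pax1 are brightest among the E13.5 clusters in cluster 2, Smoc2 in cluster 12 and Igf1 in cluster 3 (cluster 21 with thinned cells).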

How the data were processed

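For both libraries the authors deposited a matrix of UMI counts, not normalized, with metadata for each cell. The submitters' processing notes name the build mm10 and the tools Cell Ranger 2.0.0 and Seurat 2.3.4, without their role or order. The sources used here do not give cell filters or doublet removal. The mitochondrial share is deposited as a fraction and printed as a percent. Of the deposited cell cycle values the scores played no part here, unlike the phase calls, cluster numbers and lineage names, which are deposited as text. The summed counts equalled the authors' total in 7099 of 7099 E11.5 cells, and the lowest total was 2253 UMIs.

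UMIs were summed per cluster and scaled to CPM. Ratios have exact conditional binomial intervals and shares of cells exact Clopper-Pearson intervals, both at 95%. There is 1 library per stage and the clusters were made from these genes, so no test was run. Calling needed 1.5-fold, an interval that excludes 1 and 20 UMIs over both groups. On simulated data the script was tested on genes changed by known folds. The leading genes were the 20 highest ratios among genes with at least 30 CPM and 50 UMIs in cluster 6, an interval above 1.5 and at least 0.2 of the highest broad class (a guard against free RNA), and the lowest genes the 10 lowest with at least 50 CPM in the other mesenchyme and the same guard. Genes of haemoglobins, mitochondria and ribosomal proteins and predicted and sex-linked genes could not be chosen. Other genes named are members of 28 lists with 450 genes, or have the highest or lowest ratios against clusters 3, 5 and 8, chosen after their values were seen. The members and lists were chosen with earlier results of these data known. The comparisons of phases within cluster 6 and of cycling cells with cluster 3 were also chosen after values were seen.

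Haemoglobin made up 65.7% of erythroid UMIs and was left out of their background level. Cells were thinned to 2000 UMIs (seed 11). Doublets were kept: Scrublet in scanpy marked 7 of 7099 cells (0.0986%) and had therefore not worked. As an alternative, cells in the top 5% of its scores were dropped (10 of cluster 6 and 278 of the other mesenchyme). Coordinates are from the GENCODE annotation of GRCm38. Some members of the lists are not reported here by name. Scripts ran in Python 3.11.15 with pandas 2.3.3, scipy 1.17.1, numpy 2.4.6, matplotlib 3.10.9 and scanpy 1.11.5.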

Additional observations from a re-analysis of the deposited data

How the results depend on the processing

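The counts of genes called moved by more than 1.5 times under 2 settings. With a fold of 2 in place of 1.5, 358 genes were called higher and 350 lower, against 683 and 665, as a stricter fold must give fewer. With S and G2M cells only, a setting chosen after seeing the data, 451 were called higher and 339 lower, and the cause was not tested. Under the other settings 518 to 779 genes were called higher and 463 to 665 lower. In G1 cells only, 366 of the 683 higher and 307 of the 665 lower genes were called again. With each cell thinned to 2000 UMIs, 347 of the higher and 345 of the lower genes were. The share of cluster 6 cells in S or G2M was 31.4% without the highest doublet scores and 45.4% among cells with 4000 to 10000 UMIs, which left 280 of 501 cells. The count of leading genes highest in a single E13.5 cluster was 4 in the main values. It was 5 with thinned cells and 2 with the first 10 leading genes. With thinning the highest cluster of Igf1 and Epha3 changed. Dlx4os, at no more than 1.78 CPM before thinning, kept no UMI in these clusters and so had no highest cluster. For the 30 named genes, 240 values under 8 settings gave 200 within their counting interval, 40 outside it and 0 turned in direction. Rprm in S and G2M cells only was the 1 call lost. These genes were chosen for their extreme folds and the settings reuse the same cells, so the selection fixes much of these counts. Without the barcodes shared with the E13.5 library, also chosen after seeing the data, 690 genes were called higher and 652 lower. Depth limits genes of few UMIs: 3 UMIs in cluster 6 stand for 1.25 CPM, the level of Igfbp7 there. No paired analysis was possible because each stage is 1 library and no result comes from a test.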

Other observations

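Genes of imprinted growth control and of early embryonic growth were more often lower than higher in cluster 6. Of 14 imprinted genes 1 was called higher and 4 lower than in the other mesenchyme, with a median log2 ratio of -0.28. Over all genes 5.4% were called higher, near the 7.14% of this list, and 5.25% lower. Meg3, a maternally expressed long non-coding RNA, was at 1071 CPM in cluster 6 and 575 CPM in the other mesenchyme (1.86-fold higher, 1.79 to 1.94), and Peg10, Peg3, Plagl1 and Zim1 were lower. Igf2, the growth factor related to Igf1, was at 209 CPM in cluster 6 and 171 CPM in the other mesenchyme and was not called. Of 11 early growth regulators Myc was called higher and Sall4, Peg10, Hmga1 and Mycn lower, with a median of -0.36. Peg10 is a member of both lists. Mycn, a driver of cell growth, was at 67.3 CPM in cluster 6 and 103 CPM in the other mesenchyme (1.54-fold lower, 1.31 to 1.81). In G1 cells Myc was at 18.5 CPM in cluster 6 and 13.3 CPM in the other mesenchyme and was not called. Of 11 genes of the response to tissue dissociation, such as Jun and Ier2, none was called between cluster 6 and the other mesenchyme, with a median of -0.12, although both were lower in the cycling cells than in the G1 cells of cluster 6.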
